A study of Rattus norvegicus with 24 samples.

Results

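The comparison described here is that of control rat ventricles taken at day 28 with control ventricles taken at day 3, which covers 8 of the 24 arrays of a study of streptozotocin diabetes. Arrays were assigned to these groups by their sample titles, and no measured value was used. The animals were male Wistar rats that weighed 150 g at injection, and their age is not given in the labels. Control rats received citrate buffer, the carrier of the toxin, and 4 animals were analysed at each of days 3, 28 and 42. Diabetic rats received 65 mg/kg of streptozotocin, a toxin of the insulin-producing beta cell, again with 4 animals at each day. All control groups therefore share the buffer injection and single housing, and uninjected rats were not analysed here. Each array held 6 µg of total RNA from the ventricles of 1 animal, hybridised to the Affymetrix RG-U34A rat oligonucleotide array. An array of this kind reads a transcript through a probe set, a group of short oligonucleotides, and the MAS5 software combines them into 1 signal per probe set on a linear intensity scale. Signals of different probe sets cannot be set against each other, so every comparison below is of the same probe set between days.

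After weaning, a rat heart grows mainly because its existing muscle cells enlarge, since most cardiac myocytes have by then left the cell cycle. Around them the extracellular matrix, the capillary bed and the electrical contacts between cells are remodelled, and transcripts of fetal growth programmes are turned down over postnatal life. Heart tissue also carries its own circadian clock, a loop of transcription factors whose transcripts rise and fall over each day and which drives output genes such as Dbp.

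The control rats and their hearts grew between the days, and the body grew by more in proportion than the ventricles. Body weight was 156, 180, 175 and 181 g in the 4 rats of day 3 and 330, 295, 312 and 351 g in those of day 28, with means of 173 ± 11.6 g (SD, n = 4) and 322 ± 24 g (n = 4). Ventricle weight was 0.5 g in 3 rats and 0.53 g in the other at day 3, and 0.84, 0.75, 0.71 and 0.9 g at day 28. No animal of day 28 overlapped with day 3 in either measure, and the ventricles were 1.58 times and the bodies 1.86 times as heavy. Relative to body weight the ventricles were therefore lighter, at 2.48 ± 0.138 mg/g (SD, n = 4) against 2.94 ± 0.186 mg/g (n = 4). These 3 differences each had p = 0.029 in an exact two-sided permutation test, the smallest that 4 animals against 4 allow, and adjusted p = 0.038 over the 4 measures tested. Blood glucose, at 113 ± 10.1 against 127 ± 14.8 mg/dL (SD, n = 4 each), overlapped and missed the threshold (exact permutation p = 0.23, adjusted p = 0.23). The 4 control rats of day 42 weighed 432 ± 26.8 g with ventricles of 0.997 ± 0.118 g (SD).

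**Figure D1:**
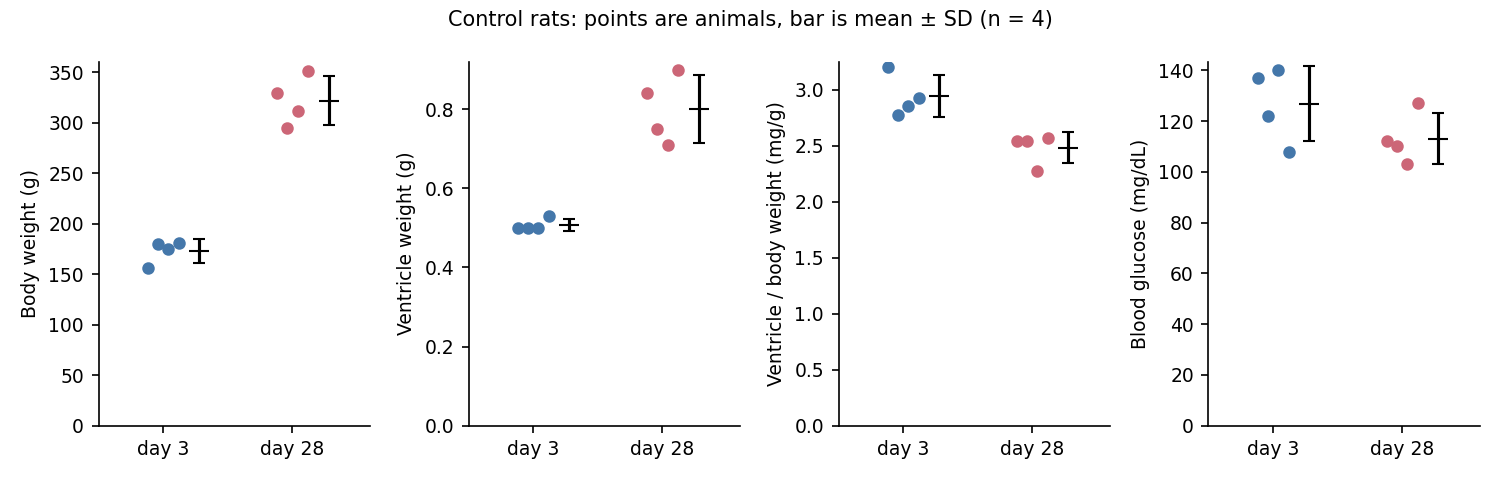
Body weight, ventricle weight, their ratio and blood glucose of the control rats at days 3 and 28, 1 point per animal, with the mean and SD as a bar beside the points (n = 4 per day) and every axis starting at 0. The days separate completely in the first 3 panels, with ventricle weights of 0.5 to 0.53 g at day 3 and 0.71 to 0.9 g at day 28, while the glucose values overlap.

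The day of harvest goes together with the day on which the arrays were scanned, and the 2 cannot be told apart. All 4 arrays of day 28 were scanned on 1 day, and the arrays of day 3 on 2 other days. Chip lots were likewise split between the days with none in common. Fluidics station, the instrument that washed and stained the arrays, did allow a partial comparison, since all 4 arrays of day 28 and replicate 3 of day 3 ran on the same station, while replicates 1, 2 and 4 of day 3 ran on another. Correlations of log2 signal between arrays of the same day ran from 0.965 to 0.974 at day 3 and from 0.952 to 0.965 at day 28, and those between the days from 0.940 to 0.969. Array quality was described by 7 measures, and the lowest adjusted p among them was 0.20 in an exact permutation test (n = 4 each). That lowest value belonged to the 3' to 5' signal ratio of the Gapdh control probe sets, a measure of RNA integrity and labelling length, which was 1.05 to 1.11 at day 28 and 1.01 to 1.05 at day 3 without overlap. Its part in the differences below was not tested. Median signal was 370 at day 28 and 367 at day 3.

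Of the 5244 probe sets that passed a filter on low signal, 390 differed between the days past an adjusted p of 0.05 in limma, which is 7.44%. Of these, 108 were higher at day 28 (2.06%) and 282 were lower (5.38%). On a unit of genes, each represented by its probe set with the highest mean, 194 of 3140 passed (6.18%), with 64 higher (2.04%) and 130 lower (4.14%), and the median log2 difference over all 3140 was 0.03. In 329 of the called probe sets (6.27% of all tested) the 4 arrays of day 28 did not overlap with the 4 arrays of day 3, and such separation, called or not, was seen in 729 probe sets (13.9%). The 12 largest rises and 12 largest falls named below were taken only from called genes with such separation. Their lack of overlap, wherever given, follows from that rule and adds no support. The lower genes span a median of 36.7 kb in the RefSeq annotation of the rat GRCr8 assembly and the higher genes 13.6 kb, against 21.8 kb over all genes, a description of the called genes with no test. A further 65 called probe sets had no single gene symbol, with log2 differences from -2.21 to 2.49, and stay unnamed. The call count depends on the station: 160 probe sets passed with fluidics station as a block in the model, 119 lower and 41 higher. In a fit of station 2 alone, with 1 array of day 3, 2 probe sets passed, and all 390 had the same sign as in the full fit, to which those arrays also belong. It moved as well when single arrays were left out, from 188 without replicate 3 of day 28 to 595 without replicate 2 of day 28. Leaving out replicate 4 of day 28 gave 255, and leaving out replicate 1, 2 or 4 of day 3 gave 215, 253 or 258.

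**Figure D2:**
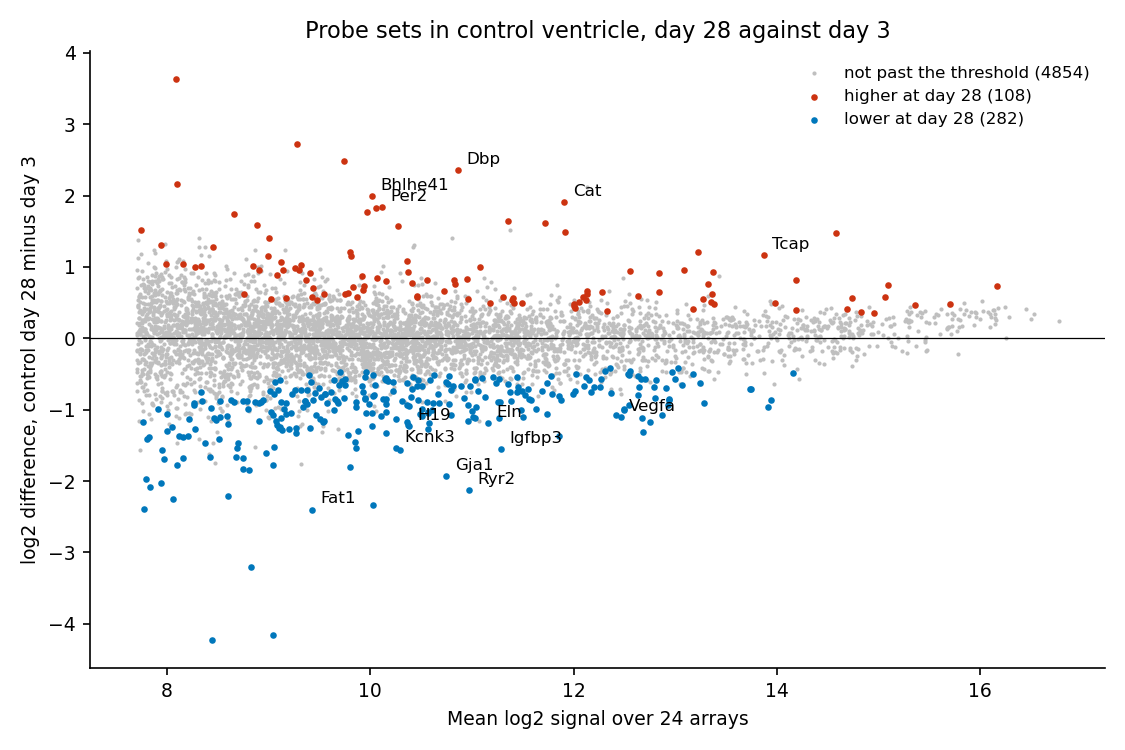
Log2 difference between control day 28 and control day 3 (vertical axis) against the mean log2 signal over the 24 arrays (horizontal axis) for the 5244 probe sets tested, with red points for the 108 higher at day 28, blue points for the 282 lower and grey points for the rest. Labels mark the highest-signal probe set of some of the genes described in the text, with Dbp at the top (2.35) and Fat1 at the bottom (-2.40) of the labelled points.

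Among the 65 genes named here that passed, 32 stayed past the threshold without each of the 8 arrays in turn. Of these, 19 also passed in every other alternative fit in which they were measured and that kept all 4 arrays of each day, scan day or chip lot as a random block and fluidics station as a fixed block included. They are Dbp, Bhlhe41, Per2, Tcap, Ephx1 and Ptprr, which rose, and Gja1, Ryr2, Igfbp3, H19, Sdc3, Pcnx3, Eln, Mmp14, Lamc1, Vegfa, Nos3, Fgfr1 and Gnai2, which fell. For the other genes, the arrays whose omission ended the call are given with their values, and the fits on all 4 arrays per day that ended it are listed here by setting. Station as a block ended the calls of 35 genes: Adcy6, Adrb1, Atn1, Canx, Cd36, Cryab, Cs, Csrp3, Cyb5a, Dnaja2, F3, Fat1, Fn1, G0s2, Ghr, Grk2, Hk1, Igfbp5, Insr, Kcnd3, Kcnq1, Lamb2, Lep, LOC102553868, Mgll, Nr1d2, Pdia2, Pdk4, Pecam1, Slc34a1, Smarca4, Socs2, Sod3, Sult1a1 and Tgfb3. Chip lot as a random block also ended 35, those of Acot2, Adcy6, Adrb1, Canx, Casq1, Cd36, Chrna1, Cryab, Cs, Cyb5a, Cyc1, Dnaja2, F3, Fat1, Fn1, G0s2, Ghr, Grk2, Hk1, Igfbp5, Insr, Lep, LOC102553868, Mgll, Nedd4, Nr1d2, Pdia2, Pdk4, Pdp2, Pfkfb2, Smarca4, Socs2, Sod3, Sult1a1 and Tgfb3. A fit of the 8 arrays alone ended 29, those of Adcy6, Adrb1, Atn1, Canx, Cat, Cd36, Cryab, Cs, Csrp3, Cyc1, Dnaja2, Eef1a2, Fat1, Ghr, Grk2, Hk1, Insr, Lep, Mgll, Nr1d2, Pdia2, Pdk4, Pdp2, Pfkfb2, Slc34a1, Smarca4, Sod3, Sult1a1 and Tgfb3, and with a replicate block in those 8 arrays Cyb5a and Kcnk3 were lost too. Scan day as a random block ended 18, those of Cd36, Chrna1, Cryab, Cyc1, Fat1, Ghr, Grk2, Hk1, Insr, LOC102553868, Mgll, Nr1d2, Pdia2, Pdk4, Pfkfb2, Slc34a1, Sod3 and Sult1a1. Median centring ended 10 (Canx, Cd36, Cryab, Cs, Cyc1, Dnaja2, Fat1, Ghr, LOC102553868 and Sult1a1), and the 12 control arrays alone 7 (Atn1, Canx, Cd36, Insr, Nr1d2, Pdk4 and Sult1a1). Cd36 was also lost with no filter, plain eBayes, 1 probe set per gene, quantile normalization and the replicate block, settings that each ended the calls of 2 to 6 genes. Besides Cd36, Hk1 and Insr were lost with no filter, plain eBayes and the replicate block, Sult1a1 with no filter and plain eBayes, Mgll with no filter, Cryab and Cyc1 with plain eBayes and quantile normalization, Ankrd1 with quantile normalization, Fat1 with 1 probe set per gene and LOC102553868 with the replicate block.

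Genes of the circadian clock and its output held 3 of the largest rises among the named genes. Of 20 listed clock genes, 8 were measured above the filter, 4 of them rose (50%, against 2.04% of all genes) and none fell, with a median log2 difference of 1.22. Dbp, a transcription factor of the PAR bZIP family that is a direct clock output, stood at 361, 919, 1203 and 609 intensity units in replicates 1 to 4 of day 3 and at 3493, 4731, 3013 and 3341 in those of day 28. Every array of day 28 was thus above every array of day 3, and the difference was 2.35 ± 0.31 on the log2 scale (SE, adjusted p = 8.1e-05, limma), a 5.11-fold rise. A second Dbp probe set rose by 2.73 (adjusted p = 0.00011). Bhlhe41 (also DEC2), a repressor that binds E-boxes and dampens the clock loop, read 279, 603, 826 and 689 at day 3 and 1932, 2076, 2512 and 2409 at day 28, again without overlap (2.0 ± 0.25, adjusted p = 5.5e-05). Per2, a core period gene, read 425, 359, 298 and 1106 at day 3 and 1623, 1377, 2034 and 1790 at day 28 (1.83 ± 0.32, adjusted p = 0.0014). Replicate 4 of day 3 was the highest of its group and still lay below all arrays of day 28. Nr1d2, the nuclear receptor REV-ERB beta, read 186, 1010, 1238 and 554 at day 3 and 948, 2191, 2420 and 2022 at day 28 (1.58 ± 0.45, adjusted p = 0.035). Its groups overlapped in replicate 1 of day 28, which was below replicates 2 and 3 of day 3. Nr1d2 lost its call when replicate 2, 3 or 4 of day 28, or replicate 1 or 4 of day 3, was left out, with log2 differences from 1.01 to 1.54 in those fits, and in 5 fits on all arrays of each day, those with station, scan day or chip lot as a block, of the 8 arrays alone and of the 12 control arrays. In the fit of station 2 alone the differences were 1.58 for Dbp, 1.43 for Bhlhe41, 2.5 for Per2 and 0.53 for Nr1d2. Hlf (0.86), Bhlhe40 (0.48), Tef (0.17) and Nr1d1 (-0.12) were the other measured members and did not pass. The labels do not give the hour at which ventricles were taken. At day 42 the control arrays stood at means of 4741 for Dbp, 1609 for Bhlhe41, 1696 for Per2 and 1667 for Nr1d2.

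**Figure D3:**
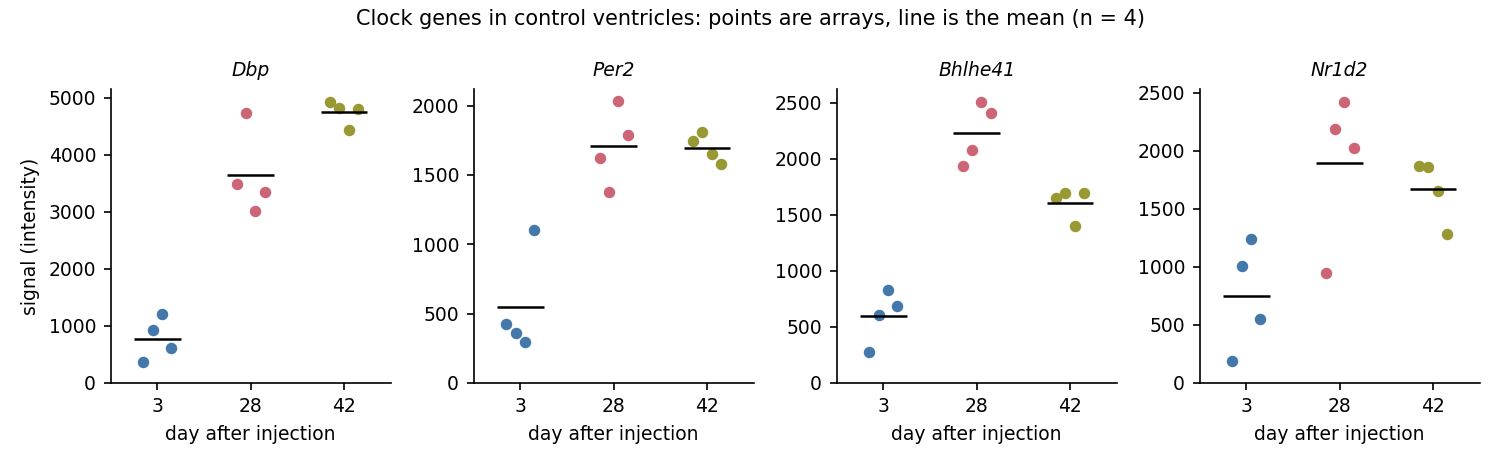
Signal of 4 clock genes (intensity units, axes starting at 0) in control ventricles at days 3, 28 and 42, 1 point per array with the mean of 4 as a line. Dbp, Per2 and Bhlhe41 at day 28 lie wholly above day 3, while the lowest Nr1d2 array of day 28 (948) lies within the day 3 range of 186 to 1238.

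The promoters of the 4 clock genes that rose are shown because clock factors act through short elements in such regions. All 4 were found in the RefSeq promoter table of GRCr8, which holds 250 bases before and 50 bases after each gene start, and are written 5′ to 3′ on the gene's strand, with the elements found in capitals. Per2 is at chr9:99496944-99497243 on the minus strand, Bhlhe41 at chr4:180569306-180569605 on the minus strand, Nr1d2 at chr15:9954784-9955083 on the plus strand and Dbp at chr1:105312006-105312305 on the plus strand.
Per2: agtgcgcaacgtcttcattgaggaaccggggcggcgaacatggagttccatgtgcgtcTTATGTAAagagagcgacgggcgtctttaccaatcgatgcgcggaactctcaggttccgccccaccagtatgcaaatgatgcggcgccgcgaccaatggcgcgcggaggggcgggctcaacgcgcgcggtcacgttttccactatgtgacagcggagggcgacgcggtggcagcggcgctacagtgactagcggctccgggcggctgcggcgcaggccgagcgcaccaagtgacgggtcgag
Bhlhe41: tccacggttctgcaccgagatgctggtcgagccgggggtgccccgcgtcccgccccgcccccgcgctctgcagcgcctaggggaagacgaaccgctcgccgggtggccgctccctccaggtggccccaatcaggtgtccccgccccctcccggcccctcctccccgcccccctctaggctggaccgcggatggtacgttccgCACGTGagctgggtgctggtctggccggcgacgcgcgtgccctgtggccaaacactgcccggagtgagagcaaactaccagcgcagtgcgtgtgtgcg
Nr1d2: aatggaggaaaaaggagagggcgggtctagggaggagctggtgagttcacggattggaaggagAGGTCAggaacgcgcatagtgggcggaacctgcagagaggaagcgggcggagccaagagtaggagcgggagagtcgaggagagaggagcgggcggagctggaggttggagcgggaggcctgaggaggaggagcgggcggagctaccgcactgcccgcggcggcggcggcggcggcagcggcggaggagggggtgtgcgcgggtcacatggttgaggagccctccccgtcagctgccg
Dbp: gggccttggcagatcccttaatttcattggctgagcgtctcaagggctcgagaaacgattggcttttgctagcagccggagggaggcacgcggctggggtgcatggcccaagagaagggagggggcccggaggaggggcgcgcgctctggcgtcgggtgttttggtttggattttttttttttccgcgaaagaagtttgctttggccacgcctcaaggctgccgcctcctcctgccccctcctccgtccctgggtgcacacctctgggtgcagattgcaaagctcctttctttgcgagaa
Both strands were searched for 3 elements that do not overlap each other here: the E-box CACGTG bound by CLOCK and BMAL1, the D-box TTATGTAA bound by DBP and its relatives, and AGGTCA, the core of the site bound by REV-ERB and ROR receptors. Per2 held the D-box 192 bases before its start, Bhlhe41 the E-box 48 bases before, and Nr1d2 the receptor core 187 bases before. None of the 3 lay in the Dbp window, which says only that these letters are not in these 300 bases. Over 33469 rat promoters of the same length, 0.893% held the D-box, 6.42% the E-box and 16.2% the receptor core. A match is a description of the sequence and not evidence of binding.

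Transcripts for 3 proteins of the Z-disc and of titin, the scaffold of the sarcomere, rose, while most contractile isoforms did not pass. Tcap (telethonin), which caps titin at the Z-disc, read 8908, 9958, 10263 and 8257 at day 3 and 22376, 21828, 18831 and 20570 at day 28. The days were widely separated, with little spread within either, and Tcap rose by 1.16 ± 0.16 on the log2 scale (SE, adjusted p = 0.00011, limma), which is 2.24-fold. Csrp3, the muscle LIM protein that binds it, rose by 0.49 ± 0.11 (adjusted p = 0.0071), from a mean of 13389 ± 1872 to 18703 ± 643 (SD, n = 4). Ankrd1, a stretch-responsive partner of titin, rose by 0.58 ± 0.13 (adjusted p = 0.0069), from 26340 ± 4099 to 39164 ± 2406. Csrp3 did not pass with fluidics station as a block (0.45) or in the 8 arrays alone, and Ankrd1 did not pass after quantile normalization (0.40). Csrp3 and Ankrd1 were the 2 rises among 23 measured sarcomere genes (8.70%, against 2.04% of all genes, median -0.01), with no fall. The adult cardiac troponin Tnni3 differed by 0.40 and the slow skeletal form of the immature heart, Tnni1, by -0.01, neither past the threshold, and skeletal actin Acta1 by -0.17. For the myosin heavy chains the probe sets disagreed. Myh6, the fast adult chain, and Myh7, the slow chain, differed by 0.15 and 0.00 on their brightest probe sets, whereas a dimmer probe set of Myh6 fell by 0.86 (adjusted p = 0.011) and one of Myh7 rose by 1.48 (adjusted p = 0.0072). The array's maker marks sequence shared within a gene family by a suffix, which the brightest probe sets of both genes carry as well as that Myh6 probe set. The natriuretic peptides, markers of wall stress, did not pass. Nppa read 15908, 2468, 8470 and 6153 at day 3 and 5563, 14045, 3614 and 11313 at day 28, a wide spread in both groups (0.16 ± 0.47). Nppb differed by 0.59. Other markers of the atria, where Nppa is strongest, did not pass, and the summed signal of the 3 measured atrial markers ran from 3850 to 34680 at day 3 and from 4517 to 30975 at day 28, so the arrays of each day varied alike. Its part in the Nppa values was not tested.

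Of 19 measured members of the insulin-like growth factor (IGF) axis, 5 fell (26.3%, against 4.14% of all genes), 1 rose (5.26%, against 2.04%) and 13 did not pass, with a median of -0.29. H19, a transcript of the fetal growth programme, was among those that fell. Igfbp3, a binding protein that carries and restrains IGFs, read 4842, 3881, 4114 and 3608 at day 3 and 1155, 1558, 1410 and 1504 at day 28. Its days were far apart and the difference was -1.55 ± 0.26 on the log2 scale (SE, adjusted p = 0.0011, limma). A second probe set fell by 1.46 (adjusted p = 0.017). H19, the maternally expressed non-coding RNA of the imprinted locus that also holds Igf2, read 1821, 2470, 1505 and 1349 at day 3 and 914, 749, 766 and 580 at day 28, without overlap (-1.23 ± 0.26, adjusted p = 0.0052). A dimmer H19 probe set fell by 4.23 (adjusted p = 6.2e-06), from 1358 ± 989 to 65.0 ± 24.2 (SD, n = 4), with a large spread at day 3. Igfbp5 fell by 2.02 ± 0.52 (adjusted p = 0.019) on one probe set and differed by -0.20 on another, which did not pass. Its call was lost without replicate 1 of day 28 or replicate 4 of day 3 (-1.87 and -1.92) and with fluidics station or chip lot as a block. Socs2, a feedback inhibitor of growth hormone signalling, fell by 1.13 ± 0.26 (adjusted p = 0.010) but not past the threshold with station (-1.01) or chip lot as a block. The remaining 2 calls, named after their values were seen, were Insr, the insulin receptor, at -1.16, and Ghr, the growth hormone receptor and the only rise, at 0.54. Each was lost in 6 of the 8 fits without 1 array, Insr keeping its call only without replicate 2 or 3 of day 28 and Ghr only without replicate 2 of day 28 or replicate 2 of day 3. Igf1 (-0.30) and Igf2 (-0.58) themselves did not pass on any of their probe sets.

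**Figure D4:**
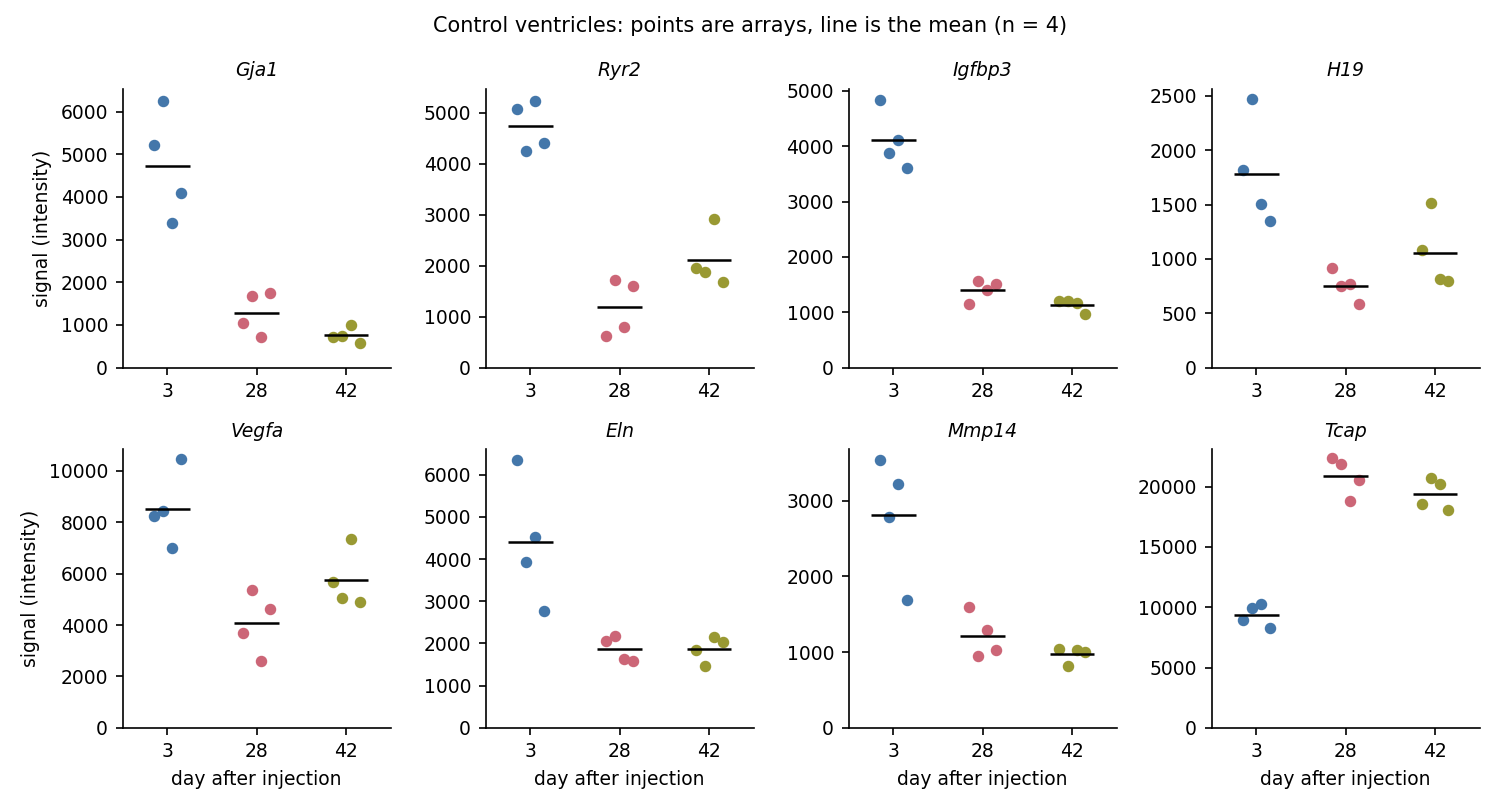
Signal of 8 genes (intensity units, axes starting at 0) in control ventricles at days 3, 28 and 42, 1 point per array with the mean of 4 as a line. In each panel the arrays of day 28 lie wholly on one side of those of day 3, below them for 7 genes and above for Tcap (18831 to 22376 against 8257 to 10263).

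Of 28 measured matrix genes 5 fell (17.9%, against 4.14% of all genes), none rose and 23 did not pass, with a median of -0.24. The 5 were elastin, 2 laminin chains, fibronectin and the protease Mmp14, and the call for collagens depended on the probe set. Elastin (Eln) read 6355, 3932, 4526 and 2775 at day 3 and 2056, 2170, 1623 and 1587 at day 28, so all arrays of day 28 were lower (-1.19 ± 0.20, SE, adjusted p = 0.0011, limma). Mmp14, a membrane-bound protease that cleaves collagen and activates other metalloproteinases, read 3543, 2785, 3218 and 1693 at day 3 and 1600, 949, 1286 and 1022 at day 28 (-1.19 ± 0.22, adjusted p = 0.0024). Lamc1, the gamma chain common to most laminins, read 10001, 9851, 10729 and 9374 against 3916, 6929, 3995 and 5816 (-0.99 ± 0.18, adjusted p = 0.0015). Neither gene showed any overlap between the days. Lamb2, a beta chain of the muscle basement membrane, fell by 0.65 ± 0.14 (adjusted p = 0.0064), and fibronectin (Fn1), named after its values were seen, fell by 0.71. Both lost their call with fluidics station as a block, and Fn1 also with chip lot as a random block. The fibrillar collagens of fibroblasts did not pass on their brightest probe sets, at -0.04 for Col1a1 and -0.50 for Col3a1. Dimmer probe sets did: of 3 others for Col1a1, 2 fell by 1.17 and 1.10 (adjusted p = 0.0020 and 0.010), and the other of Col3a1 fell by 1.31 (adjusted p = 0.0011). Counted over all 47 probe sets of the matrix genes, 13 fell and none rose, where 5.38% of all probe sets tested fell and 2.06% rose.

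Among 19 measured genes of angiogenesis and the response to low oxygen, 4 fell (21.1%, against 4.14% of all genes), none rose and 15 did not pass, with a median of -0.24. Vegfa, the main growth factor for capillaries, read 8230, 8458, 6996 and 10446 at day 3 and 3704, 5369, 2607 and 4638 at day 28. No array overlapped, and the difference was -1.10 ± 0.20 on the log2 scale (SE, adjusted p = 0.0019, limma), with 2 of its 3 other probe sets also lower (-1.10 and -0.90) and the last at -0.54, not past the threshold. Nos3, the nitric oxide synthase of endothelium, read 1084, 1007, 961 and 865 against 473, 591, 436 and 485 (-0.98 ± 0.20, adjusted p = 0.0048). Of its 4 other probe sets, 1 fell (-1.69) and 3 did not pass, at -1.0 to -0.13. Fgfr1, a fibroblast growth factor receptor, read 3050, 3077, 2392 and 2427 against 1624, 1838, 1157 and 1543 (-0.84 ± 0.15, adjusted p = 0.0015), and a second probe set fell by 1.23. Tgfb3, a transforming growth factor, fell by 0.67 ± 0.19 (adjusted p = 0.028) but passed only when replicate 2 of day 28 or replicate 3 of day 3 was the array left out, and not with station as a block, and its second probe set, at -0.10, did not pass. The endothelial marker Pecam1 fell by 0.85 ± 0.19 (adjusted p = 0.0084), from 5684, 5096, 3384 and 5272 to 2866, 2375, 2328 and 3115, though not with station as a block (-0.35 within station 2). It was the 1 call among 4 measured endothelial markers, and Vwf (-0.30), Kdr (-0.24) and Flt1 (0.14) did not pass. The signals of the 4 summed to 5209 to 7687 at day 3 and 4411 to 4993 at day 28, but without Pecam1 the sums of the other 3 overlapped, at 1826 to 2527 and 1793 to 2263. Such a sum adds different probe sets and is weighted by their brightness. In whole tissue, fewer cells of a type and less RNA per cell cannot be told apart, and the part of endothelial content in the Nos3 and Vegfa values was not tested.

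The gap junction gene Gja1 and the calcium release gene Ryr2 both fell. Gja1, which encodes connexin 43, the main gap junction protein between ventricular myocytes, read 5211, 6246, 3382 and 4094 at day 3 and 1034, 1667, 712 and 1744 at day 28. Its highest array of day 28 was well below the lowest of day 3, and the difference was -1.93 ± 0.29 on the log2 scale (SE, adjusted p = 0.0004, limma), a 3.81-fold fall. The other 6 measured connexin and sodium pump genes did not pass (-0.47 to 0.49). Ryr2, the calcium release channel of the cardiac sarcoplasmic reticulum, read 5081, 4240, 5236 and 4411 at day 3 and 620, 1719, 803 and 1600 at day 28 (-2.13 ± 0.33, adjusted p = 0.0006), with arrays of day 28 in a low and a high pair. Casq1, a calcium-binding protein of the reticulum best known from skeletal muscle, fell by 1.16 ± 0.26 (adjusted p = 0.0093), though not with chip lot as a random block. Ryr2 and Casq1 were the 2 calls among 23 measured calcium cycling genes (8.70%, against 4.14% of all genes, median -0.05). Of the 47 probe sets of these genes 7 fell, where 5.38% of all probe sets tested did. The calcium pump Atp2a2 differed by 0.25 and its inhibitor Pln by -0.02 on their brightest probe sets, and of 3 other Atp2a2 probe sets 1 fell by 0.90 (adjusted p = 0.0066) and 2 did not pass.

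Of potassium channels, 3 fell among the 16 measured potassium and sodium channel genes (18.8%, against 4.14% of all genes, median -0.21), and no member rose. Kcnk3, the background channel TASK-1, read 1440, 1538, 2086 and 1143 at day 3 and 752, 886, 229 and 478 at day 28 (-1.54 ± 0.28, SE, adjusted p = 0.0020, limma), and a second probe set fell by 4.15 (adjusted p = 0.00061). Kcnd3, a subunit of the fast transient outward current, read 405, 400, 498 and 604 against 63, 330, 115 and 152 (-1.77 ± 0.43, adjusted p = 0.013). Kcnq1, the slow delayed rectifier, read 1077, 1035, 922 and 959 against 238, 638, 374 and 352 (-1.41 ± 0.36, adjusted p = 0.019). All 3 were lower in every array of day 28, as the rule for naming the largest falls required. Kcnd3 lost its call without replicate 1 of day 28 (-1.39), and Kcnq1 without replicate 1 or 3 of day 28 or replicate 1 of day 3 (-1.40 to -1.19), and both with station as a block. The second transient outward subunit Kcnd2 (0.80) and the Kcnq1 partner Kcne1 (1.13) differed in the other direction and did not pass.

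Of 20 measured genes of adrenergic and muscarinic signalling, through which nerves set heart rate and force, 6 fell (30%, against 4.14% of all genes) and none rose, with a median of -0.35, the lowest of the 28 lists that are not cell type markers. The 4 with the smallest adjusted p are given here, and the remaining calls are not described. Gnai2, an inhibitory G protein subunit, read 13628, 14925, 11928 and 12757 at day 3 and 7570, 8985, 6160 and 6045 at day 28 (-0.90 ± 0.20, SE, adjusted p = 0.0072, limma), and both of its other probe sets fell (-0.52 and -0.51). Adrb1, the main beta receptor of the heart, read 450, 542, 394 and 404 against 163, 276, 72 and 265 (-1.38 ± 0.36, adjusted p = 0.022). Adcy6, a cardiac adenylyl cyclase, fell by 0.83 ± 0.21 (adjusted p = 0.018), and Grk2, the kinase that silences active beta receptors, by 0.58 ± 0.16 (adjusted p = 0.028), with a second Grk2 probe set at -0.86. None of Adrb1, Adcy6 and Grk2 passed with station as a block or in the 8 arrays alone. Adrb1 and Adcy6 also lost their call without replicate 3 of day 28 or replicate 1 of day 3, Adrb1 without replicate 2 and Adcy6 without replicate 4 of day 3, and Grk2 in 5 of the 8 fits without 1 array, those without replicates 3 and 4 of day 28 and 1, 2 and 4 of day 3.

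In the lists of energy metabolism few genes passed. In oxidative phosphorylation 36 of 42 measured genes lay above 0, against 1682 of all 3140 genes, with a median of 0.26 against 0.03. Of the 42, 1 passed as a rise (2.38%, against 2.04% of all genes). It was Cyc1, cytochrome c1 of complex III (0.38 ± 0.11, SE, adjusted p = 0.035, limma). Its mean was 27650 at day 3 and 35924 at day 28, and its call was lost in 6 of the 8 fits without 1 array, all but those without replicate 2 of day 28 or replicate 4 of day 3. For fatty acid uptake and oxidation, 2 of 32 fell (6.25%, against 4.14% of all genes) and 1 rose (3.13%, against 2.04%), and for glucose uptake and glycolysis 2 of 22 fell (9.09%), both with a median of 0.03. The rise was that of catalase (Cat, 1.91), which is counted again among the antioxidant genes below. A second probe set of Cat did not pass. Acot2, a mitochondrial thioesterase, fell by 0.93 ± 0.21 (adjusted p = 0.0093), though not with chip lot as a random block. Cd36, a fatty acid transporter, fell by 0.68 (adjusted p = 0.0496), at the edge of the threshold, and lost the call in 6 of the 8 fits without 1 array, all but those without replicate 2 or 4 of day 28. Of 20 measured genes of pyruvate entry and the citric acid cycle, 2 fell (10%, against 4.14% of all genes) and 1 rose (5%, against 2.04%). The median of that list was 0.06, the falls were Pdk4 and Cs, and the rise was Pdp2. Pdk4, the kinase that blocks pyruvate oxidation, read 9025, 6696, 5910 and 10897 at day 3 and 1927, 4708, 3732 and 5184 at day 28 (-1.12 ± 0.32, adjusted p = 0.033), while Pdp2, the phosphatase that opposes it, rose by 0.67 ± 0.16 (adjusted p = 0.012). Every Pdk4 array of day 28 was below those of day 3. The Pdk4 call was lost without replicate 1 or 3 of day 28 or replicate 1, 2 or 4 of day 3 (-1.2 to -0.81), and that of Pdp2 without replicate 3 of day 28 or replicate 1 of day 3. Citrate synthase (Cs) fell by 0.57 (adjusted p = 0.025) and hexokinase 1 (Hk1) by 0.52 (adjusted p = 0.039), neither of them with station as a block. Cs lost its call without replicate 3 of day 28 or replicate 3 or 4 of day 3, and Hk1 kept it, with 1 array left out, only without replicate 2 of day 28. Pfkfb2, which makes the activator of phosphofructokinase, fell by 1.13 (adjusted p = 0.035) and kept its call only without replicate 1 of day 28. Other probe sets of Acot2 (-0.78), Cd36 (-0.38), Hk1 (-0.09) and Pdp2 (0.41) did not pass. The glucose transporters Slc2a4 (0.03) and Slc2a1 (0.65), hexokinase 2 (Hk2, 0.20), the carnitine palmitoyltransferases Cpt1a (0.11) and Cpt1b (-0.14), and Ckb (-0.12) did not pass. Acot1 (0.68) lay at the floor in 2 arrays of day 3 and 1 of day 28 and did not pass. Of 18 measured genes of lipid synthesis and breakdown 2 fell (11.1%, against 4.14% of all genes) and none rose. They were G0s2, an inhibitor of triglyceride lipolysis (-0.94, adjusted p = 0.031), and Mgll, monoglyceride lipase (-0.88, adjusted p = 0.037). Counted over all 38 probe sets of this list, 5 fell and 2 rose, where 5.38% of all probe sets tested fell and 2.06% rose. G0s2 kept its call only without replicate 4 of day 28 or replicate 1 of day 3, and Mgll only without replicate 1 or 2 of day 28 or replicate 4 of day 3.

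Some detoxifying enzymes and chaperones rose. Of 40 measured antioxidant and detoxification genes 3 rose (7.5%, against 2.04% of all genes) and 1 fell (2.5%, against 4.14%), with a median of -0.01. Ephx1, the microsomal epoxide hydrolase, read 514, 428, 424 and 377 at day 3 and 1031, 1031, 798 and 1162 at day 28, without overlap (1.2 ± 0.20, SE, adjusted p = 0.0012, limma). Catalase (Cat), which breaks down hydrogen peroxide, read 1025, 816, 1217 and 3676 against 2970, 5457, 7849 and 5856 (1.91 ± 0.33, adjusted p = 0.0014). Replicate 4 of day 3 lay above replicate 1 of day 28, Cat did not pass in the 8 arrays alone, and a second probe set differed by 0.37 and did not pass. Sult1a1, a sulfotransferase, rose by 0.67 (adjusted p = 0.039) and Sod3, the extracellular superoxide dismutase, fell by 0.74 (adjusted p = 0.032). Sult1a1 was lost without replicate 1, 3 or 4 of day 28 or 2 or 3 of day 3, and Sod3 in every fit without 1 array except that without replicate 2 of day 28. Cyb5a, the electron donor cytochrome b5, rose by 1.65 ± 0.44 (adjusted p = 0.026), from 1124, 930, 1948 and 3911 to 5632, 4419, 7301 and 4243, but a second probe set differed by 0.01. The Cyb5a call was lost without replicate 1 or 3 of day 28 or 1 or 2 of day 3. Among 29 measured chaperones 3 rose (10.3%) and none fell (median 0.17). They were Canx, calnexin of the endoplasmic reticulum (0.77, adjusted p = 0.027), Dnaja2, a co-chaperone of Hsp70 (0.54, adjusted p = 0.023), and Cryab, the small heat shock protein alpha B-crystallin (0.48, adjusted p = 0.028). None of these 3 passed with station as a block. Canx and Dnaja2 passed without replicate 1 or 2 of day 28 or replicate 4 of day 3, and Cryab without replicate 2 of day 28 or replicate 2 of day 3, and in no other fit without 1 array. Other probe sets disagreed for Canx, of which 1 of 4 rose, and for Dnaja2, of which neither of 2 did. A second probe set of Cryab (0.34) and one of Sult1a1 (0.56) did not pass.

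No cell division gene passed among 18 measured in limma on the brightest probe sets, against 6.18% of all genes, and their median was -0.22. Topoisomerase Top2a differed by -0.50 and the mitotic kinase Cdk1 by -0.49. Above 0 were 6 members and below it 12, against 1682 and 1458 of all 3140 genes. On the same basis no gene passed among 41 cytosolic ribosomal proteins (median 0.12), 18 of class II antigen presentation (median 0.05), 22 immediate early genes (median 0.16), 19 of complement and the acute phase (median 0.02) or 8 of interferon response (median -0.27). Dimmer probe sets of a few of these genes did pass, and are named after their values were seen. The cyclins Ccnd1 and Ccnd3 differed by 0.99 (adjusted p = 0.016) and -0.67 (adjusted p = 0.028), 2 of the 3 dimmer probe sets of the immediate early gene Gadd45a were higher (3.64 and 1.15), and Ctsd, the protease cathepsin D, was lower (-0.77). Of 22 translation factors 1 fell (4.55%, against 4.14% of all genes). It was Eef1a2, the elongation factor of adult muscle and neurons (-0.97 ± 0.21, SE, adjusted p = 0.0078), which read 21137, 22095, 16527 and 21717 against 9326, 17819, 10118 and 6792. Eef1a2 overlapped between the days in 1 array of each and did not pass in the 8 arrays alone. Of 29 proteasome and ubiquitin genes 1 fell (3.45%, against 4.14% of all genes). It was Nedd4, a ubiquitin ligase of channels and growth receptors (-0.99 ± 0.22, adjusted p = 0.0078), though not with chip lot as a random block. Dimmer probe sets passed here too, 3 of the elongation factor Eef2 (-1.08, -0.86 and -0.71) and 1 of the proteasome activator Psme1 (0.40).

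**Figure D5:**
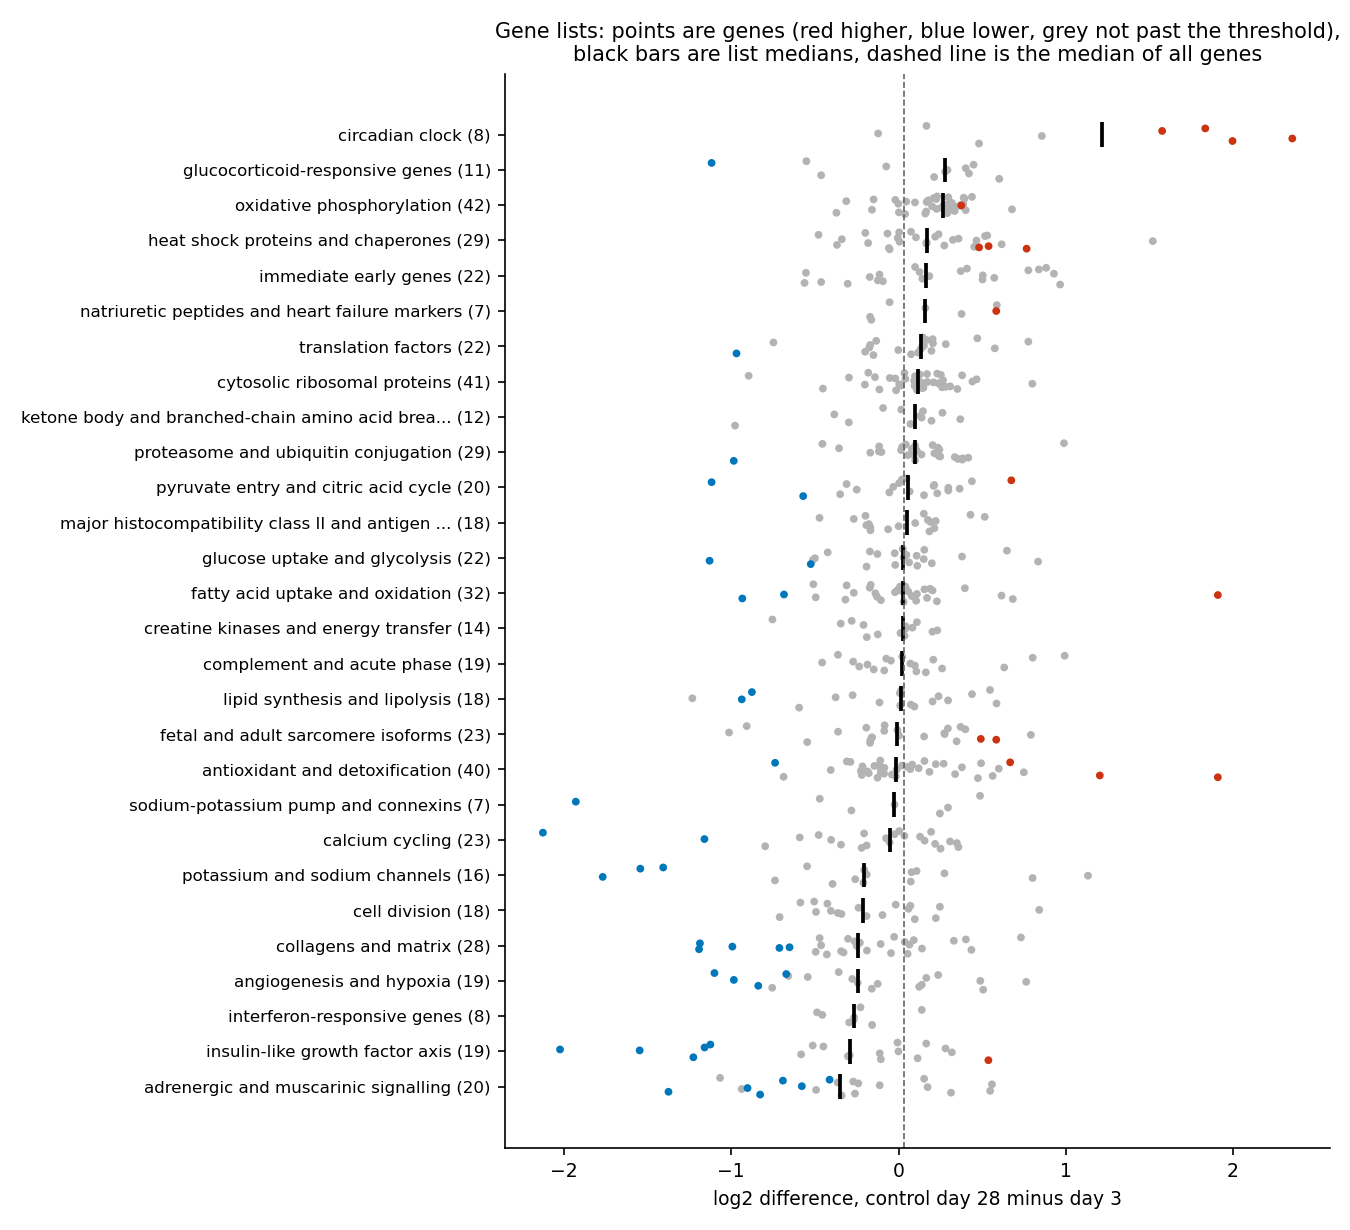
Log2 difference between control day 28 and control day 3 for the measured genes of 28 gene lists, 1 point per gene, with red for genes that rose, blue for genes that fell and grey for the rest, black bars for list medians and a dashed line at the median of all 3140 genes (0.03). The clock list lies farthest to the right (median 1.22) and the adrenergic and muscarinic list farthest to the left (-0.35), and the numbers of measured genes are in parentheses.

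Several of the largest differences fell outside the lists. Sdc3, the heparan sulfate proteoglycan syndecan 3, read 1033, 1276, 704 and 882 at day 3 and 187, 168, 483 and 336 at day 28 (-1.83 ± 0.42, SE, adjusted p = 0.010, limma). Pcnx3, a membrane protein of the pecanex family, read 854, 876, 574 and 711 against 100, 522, 189 and 222 (-1.78 ± 0.31, adjusted p = 0.0014). Ptprr, a tyrosine phosphatase that inactivates MAP kinases, read 1052, 687, 1129 and 772 against 1747, 1406, 2794 and 1817 and rose by 1.08 ± 0.20 (adjusted p = 0.0019). None of these 3 genes overlapped between the days, but the largest rises and falls were named only among called genes without overlap. Their separation follows from that rule and adds no support, and 13.9% of all probe sets tested separated in this way. Fat1, a large atypical cadherin, had the largest fall of the named genes on the brightest probe set (-2.40 ± 0.71, adjusted p = 0.042), but its day 28 arrays ran from 99 to 959 and the call held, with 1 array left out, only without replicate 2 of day 28. Atn1, a transcriptional corepressor (-1.56, adjusted p = 0.022), and Smarca4, the BRG1 subunit of chromatin remodelling complexes (-1.47, adjusted p = 0.023), fell, and neither passed with station as a block. Atn1 lost its call without replicate 1 or 3 of day 3 and Smarca4 without replicate 3 or 4 of day 28 or 2 or 3 of day 3. Tissue factor (F3), which starts coagulation, rose by 1.03 ± 0.24 (adjusted p = 0.011) but not with station as a block. Lower-signal rises were those of Slc34a1, a sodium phosphate cotransporter (1.41, adjusted p = 0.028), Chrna1, the muscle acetylcholine receptor subunit (1.28, adjusted p = 0.032), and Pdia2, a protein disulfide isomerase (1.04, adjusted p = 0.035). Of 3 Slc34a1 probe sets the other 2 did not pass (0.31 and 0.78). Slc34a1 was lost without replicate 1, 3 or 4 of day 28 or 4 of day 3, Chrna1 in all fits without 1 array except that without replicate 2 of day 28, and Pdia2 in all but those without replicate 1 or 3 of day 3. The uncharacterised LOC102553868 rose by 1.82 (adjusted p = 0.036) with 1137, 1900, 1437 and 1573 against 5253, 5952, 4724 and 5208, and was lost in each fit without 1 array although its days never overlapped.

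Markers of ventricular muscle were measured at both days, and their level cannot be set against that of other markers. Those of the atria, given above, varied widely between arrays, with sums of 3850 to 34680 at day 3 and 4517 to 30975 at day 28. The summed signal of 9 ventricular myocyte markers ran from 514470 to 551983 at day 3 and from 543815 to 723884 at day 28, and none of the 9 passed on the brightest probe set (median 0.27). A dimmer probe set of Myh6, given above, fell. Fibroblast markers summed to 108306 to 123029 and 93370 to 137020 and none of 7 passed on the brightest probe set. Of their 15 probe sets 3 fell, the dimmer ones of Col1a1 and Col3a1 given above. Among 6 smooth muscle markers none passed on the brightest probe set (median -0.32), with sums of 31284 to 33719 and 22903 to 31974, and 2 dimmer probe sets of Acta2 fell by 2.34 and 0.96 (adjusted p = 0.0078 and 0.042). Of 5 adipocyte markers, Lep, leptin, rose by 0.45 (adjusted p = 0.018, limma), though not with station as a block nor without replicate 4 of either day. A dimmer probe set of Lipe, another adipocyte marker, fell by 0.91 (adjusted p = 0.0078). Of 5 skeletal muscle markers 1 fell, Casq1, and the sums were 82786 to 90364 and 60538 to 99591. None of 4 red cell markers passed, with Hbb at -0.11, and none of the measured macrophage, T cell, mast cell, nerve or thymus markers did. The antigen presentation chain Cd74, at -0.17, did not pass either. B cell markers did not reach the filter.

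The same interval in diabetic ventricles, which share no array with the control comparison, gave 308 called probe sets (5.87%), 89 higher (1.70%) and 219 lower (4.18%). The difference between the control and the diabetic change was tested as an interaction, and 0 of 5244 probe sets passed in limma, with 243 (4.63%) at an unadjusted p under 0.05. That result does not show that the changes were equal. Of the diabetic arrays, 3 of 4 at day 28 were scanned on the day of the control day 28 arrays. At day 3 it was 3 of 4 on the days of the control day 3 arrays. Harvest day and scan day therefore cannot be told apart there either. Fluidics station ran the other way than in controls. All 4 diabetic arrays of day 3 ran on station 2, and 3 of 4 at day 28 on station 1. The control and diabetic changes thus differ in station too, and the values below come from the fit without a station block. Dbp rose by 1.79 ± 0.31 (SE) in diabetic against 2.35 ± 0.31 in control ventricles, and Bhlhe41 by 1.57 against 2.0. The diabetic and control differences were -1.53 and -2.13 for Ryr2 and -1.30 and -1.93 for Gja1. All 4 genes passed in both. For Per2 the diabetic change was 0.49 ± 0.32 (adjusted p = 0.39), from a mean of 1169 at day 3 to 1483, and its difference from the control change, 1.35, did not pass (adjusted p = 1.00). Tcap differed by 0.42 in diabetic ventricles, where its mean at day 3 was 16762, and Ptprr by 0.02, and their interactions of 0.74 and 1.06 did not pass (adjusted p = 1.00 and 0.82). H19 differed by -0.21 in diabetic ventricles against -1.23. G0s2 had the smallest interaction p of the genes named here, a fall of 0.94 in control and a rise of 1.06 in diabetic ventricles (adjusted p = 0.092).

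Levels in the 4 control rats of day 42 are given beside those of days 3 and 28 as a description, with no test. For Gja1 the means were 4733, 1289 and 758 at days 3, 28 and 42, for Igfbp3 4111, 1407 and 1131, for Mmp14 2810, 1214 and 971, and for Eln 4397, 1859 and 1874. In these genes the day 42 arrays stayed in the low range. Other genes had day 42 means close to or above their day 3 means. Gnai2 had means of 13309, 7190 and 13168, Eef1a2 of 20369, 11014 and 23271, Kcnk3 of 1552, 586 and 1562, and Kcnd3 of 477, 165 and 497. The Atn1 mean was 1687 at day 3, 737 at day 28 and 1575 at day 42. H19, Ryr2 and Vegfa lay between, with day 42 means of 1053, 2108 and 5755. The day 42 arrays were scanned on a day that held no array of the earlier days. Their 3' to 5' signal ratios were also higher. For hexokinase the ratio was 3.13 to 5.07 at day 42, 1.61 to 2.58 at day 28 and 1.84 to 2.03 at day 3. For Gapdh it was 1.14 to 1.23, 1.05 to 1.11 and 1.01 to 1.05 in the same order. The part of these ratios in the day 42 levels was not tested.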

How the data were processed

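Ventricular RNA of 24 rats was hybridised to Affymetrix RG-U34A arrays, 4 per group, and 8 arrays enter the comparison. Values in the deposited table are linear intensity signals, made with MAS5 per the submitters' processing notes (version not given in the labels or files). With 2% trimmed from both ends, array means were 1499.9 to 1500.0, so the authors had scaled the arrays to a common level. The deposited run-setting files were read only for scan day, station and lot.

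The 59 control probe sets of 8799 were dropped, which left 8740. In the annotation used 7006 had 1 symbol, 308 several and 1426 none. A floor at the pooled 10th percentile (30.5) was set before the log2 step, and 5244 probe sets with means from the 40th percentile upwards were tested. The model, in limma 3.58.1 (R 4.3.3), held 1 mean for each of the 6 groups over all 24 arrays (eBayes, trend and robust, 18 residual degrees of freedom), two-sided, with Benjamini-Hochberg adjustment over all tested probe sets and a threshold of 0.05. The number of arrays limits the precision. The labels name separate animals, and replicate numbers do not link animals across days.

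Gene lists were described by counts and medians, with no list test. Named genes were the 12 largest rises and falls without overlap between days, up to 4 members of each list by smallest adjusted p, and a set of cardiac genes. Each gene was represented by its probe set with the highest mean. The comparison, lists and genes were chosen with earlier results of these data known. Animal and quality measures were compared by exact permutation (70 arrangements) in Python 3.11.15 with scipy 1.17.1. Promoters came from RefSeq. Alternatives covered the floor, filter, normalization, arrays fitted, blocks for replicate, scan day, lot and station, and leaving out each array. The model was tested on simulated data.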

Additional observations from a re-analysis of the deposited data

Results flagged for a closer look

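Within the groups of 4 named in the text, 8 of 204 groups of values had 1 member so far from the others that its gap to them, as a share of the group's range, exceeded Dixon's critical value. Chance alone flags about 1 group in 20. At day 3, replicate 1 was high for Cd36 (10390 against 7577 to 7665) and for Sod3 (5849 against 4919 to 4980). Replicate 3 of day 3 was low for Eef1a2 (16527 against 21137 to 22095) and high for Nedd4 (6774 against 4865 to 5128). Replicate 4 of day 3 was low for Slc34a1 (97.4 against 355 to 373), and its ventricle weighed 0.53 g against 0.5 g in the other animals. At day 28, replicate 1 was high for Ankrd1 (42759 against 37743 to 38250), and replicate 3 had the lowest ratio of ventricle to body weight (2.28 mg/g against 2.54 to 2.56 mg/g). The part of any of these in the comparison was not tested beyond the fits without each array.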

How the results depend on the processing

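The count of 390 probe sets stayed within 1.5 times under the other floors, filters and normalizations, in the 12 control arrays, with plain eBayes and with scan day as a random block (268), and quantile normalization gave 147 higher and 281 lower. It was 204 in the 8 arrays alone, 184 with 1 probe set per gene, 128 with chip lot as a random block, 160 with station as a block, 2 within station 2, 114 at a threshold of 0.01, and 188 to 595 without 1 array. Lot and station-2 fits were chosen after seeing the data, and scan day and lot as fixed blocks could not be estimated because they are nested in the days. Replicate numbers did not pair animals (correlations of same-numbered deviations 0.05, -0.10, 0.09 and -0.05, with 2 of 4 highest for their own number). With the replicate block 382 probe sets passed, and 221 with the replicate block in the 8 arrays alone. The interaction count of 0 was 1, always G0s2, with 1 probe set per gene, with scan day as a fixed block, and without 1 array (0 to 1, when control day 28 replicate 4 or diabetic day 3 replicate 3 was left out). The median of all probe sets was -0.36 for the angiogenesis list and -0.11 for red cells. Without 1 animal, the differences were 139 to 158 g for body weight, 0.259 to 0.323 g for ventricle weight and -0.515 to -0.373 mg/g for their ratio, and no such test can reach 0.05, with or without adjustment. Reversals were limited, among the named genes and alternatives run, to genes that did not pass. Under quantile normalization Atp2a2 was -0.0871, Myh6 -0.175 and Myh7 -0.338. Within station 2 Ckb was 0.0206, Myh7 -0.138, Nppa -0.172, Nppb -0.112 and Top2a 0.0305, and with station as a block Hbb was 0.0171 and Myh7 -0.00497. With lot as a random block Ckb was 0.0082, Myh7 -0.00478 and Tnni1 0.0229, with scan day as a random block Myh7 was -0.0117 and Tnni1 0.0239, and with median centring Myh7 was -0.011. Without 1 array the values spanned -0.372 to 0.0618 for Ckb, -0.177 to 0.233 for Col1a1, -0.0845 to 0.0857 for Myh7, -0.321 to 0.575 for Nppa, -0.0994 to 0.0233 for Pln, -0.057 to 0.107 for Slc2a4 and -0.136 to 0.179 for Tnni1. The cause of these shifts was not tested.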

Other observations

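Of 909 genes with more than 1 probe set above the filter, 158 had at least 1 called probe set between control days 3 and 28. In 114 of these all probe sets had the same sign, in 14 all were called, and in none were probe sets called in opposite directions. Single genes nevertheless changed their place with the probe set, as given above for Myh6, Myh7, Col1a1, Cat and Cyb5a.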
